A study of Mus musculus with 3 samples.

Results

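The genes described here are 10 ligands of the transforming growth factor beta (TGF-beta) superfamily, namely the bone morphogenetic protein (BMP) genes Bmp2, Bmp4, Bmp5, Bmp6 and Bmp7, the TGF-beta genes Tgfb1, Tgfb2 and Tgfb3, and the related genes Gdf15 and Mstn. They were chosen by name, as the loci of the assembled annotation that carry these gene symbols, and are 10 of the 20117 loci with a RefSeq protein-coding transcript. The values come from heart ventricle of C57BL/6 mice at 2 embryonic stages, E10.5 and E13.5 (days of gestation), and from adults of 8 weeks, with no mutation or treatment named in the labels, and with 1 total RNA library per stage. How many animals went into a library was not given in the sources used here. No stage was replicated, so the differences below could not be set against variation between samples and carry no p-value.

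Ligands of this family are secreted as precursors that are cut into an active dimer. The dimer brings type I and type II receptor kinases together, and these phosphorylate Smad transcription factors. BMP ligands mainly use Smad1, Smad5 and Smad9, while TGF-beta ligands and myostatin mainly use Smad2 and Smad3. In the embryonic heart these signals are known for the formation of the endocardial cushions, from which valves and septa arise, and for growth of the ventricular wall, and TGF-beta in the adult heart is best known for its part in fibrosis.

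Levels are FPKM, that is fragment numbers divided by exon length and by library size, which allow genes of different length to be compared. Differences between stages are differences of log2(FPKM + 1), which understate the change of genes near or below 1 FPKM, and a difference is called when it is larger than 1 in size. Read counts were not used here, so the number of fragments behind a value was estimated from the smallest steps between low values, at about 13.9 (E10.5), 25 (E13.5) and 13.3 (adult) fragments for 1 kb at 1 FPKM. The intervals given in parentheses are 95% exact Poisson intervals on these estimated fragments. They are approximate and cover counting error alone, not the variation between animals. In bulk tissue, fewer cells of a type and less RNA per cell cannot be told apart. Over the 12569 mRNA loci that reached 1 FPKM in 1 or more libraries, the median difference was 0.17 from E10.5 to E13.5, -0.50 from E13.5 to the adult and -0.40 from E10.5 to the adult, and the differences of the ligands are to be read against these shifts.

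The promoters of 4 ligand genes are shown because their genes had 4 different courses over the 3 stages and because an assembled transcript of each starts inside the window. Mstn was high at E13.5 alone, Bmp5 was highest at E10.5, Bmp6 was highest in the adult, and Tgfb2 was equal at both embryonic stages and lower in the adult. The sequences are RefSeq windows on GRCm38.p6, from 250 bases before to 50 bases after the annotated start, at chr1:53061390-53061689 (plus strand), chr9:75775115-75775414 (plus strand), chr13:38345466-38345765 (plus strand) and chr1:186705940-186706239 (minus strand). Capitals mark the TATA box TATAAA, the E-box CANNTG, which muscle and other basic helix-loop-helix factors can bind, and the GATA motif AGATAA, each searched on both strands.
Mstn promoter: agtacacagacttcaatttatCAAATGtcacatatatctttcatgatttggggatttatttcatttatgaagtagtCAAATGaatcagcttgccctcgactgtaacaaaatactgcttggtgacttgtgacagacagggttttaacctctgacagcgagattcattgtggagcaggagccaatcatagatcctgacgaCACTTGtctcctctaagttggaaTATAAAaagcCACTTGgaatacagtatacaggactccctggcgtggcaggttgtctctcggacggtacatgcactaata
Bmp5 promoter: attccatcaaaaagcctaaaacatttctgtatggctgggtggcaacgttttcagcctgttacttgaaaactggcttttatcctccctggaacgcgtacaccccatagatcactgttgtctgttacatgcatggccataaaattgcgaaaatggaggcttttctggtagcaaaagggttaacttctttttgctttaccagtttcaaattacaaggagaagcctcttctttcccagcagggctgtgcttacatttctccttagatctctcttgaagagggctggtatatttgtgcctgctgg
Bmp6 promoter: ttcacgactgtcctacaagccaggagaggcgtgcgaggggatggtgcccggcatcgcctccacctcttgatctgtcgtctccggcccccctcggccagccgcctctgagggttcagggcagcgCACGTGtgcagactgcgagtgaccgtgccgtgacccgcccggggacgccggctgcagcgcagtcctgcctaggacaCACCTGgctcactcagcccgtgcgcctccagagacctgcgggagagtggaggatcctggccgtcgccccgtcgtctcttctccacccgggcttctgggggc
Tgfb2 promoter: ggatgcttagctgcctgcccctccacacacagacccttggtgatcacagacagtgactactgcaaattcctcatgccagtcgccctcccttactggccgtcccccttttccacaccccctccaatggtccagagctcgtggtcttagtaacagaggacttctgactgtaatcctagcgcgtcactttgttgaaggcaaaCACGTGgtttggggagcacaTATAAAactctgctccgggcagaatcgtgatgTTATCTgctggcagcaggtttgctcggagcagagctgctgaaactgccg

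The Mstn window held 1 TATA box, 29 bases before the annotated start, and 4 E-boxes. The Tgfb2 window held 1 TATA box, 31 bases before the start, 1 E-box and 1 GATA motif, the Bmp6 window held 2 E-boxes, and the Bmp5 window held none of the 3 motifs. No capital match overlapped another. Over 32851 promoter windows of the same length, 13.6% held a TATA box, 72.3% an E-box and 11.2% a GATA motif, so the E-box is common in such windows. The share of G and C was 41.3% for Mstn, 43.3% for Bmp5, 69.3% for Bmp6 and 54.3% for Tgfb2, against a median of 52.7% over all windows. Windows were present for 7 of the 10 genes, those of Bmp4, Tgfb1 and Gdf15 being the other three. The remaining genes are Bmp2, Bmp7 and Tgfb3. These matches are descriptions of letters and not of binding.

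The 10 ligand genes together were at 110.6 FPKM in the E10.5 library, 125.0 in that of E13.5 and 22.5 in adult ventricle. The embryonic sum was 4.91-fold the adult sum at E10.5 and 5.54-fold at E13.5. The 5 BMP genes carried most of this difference, with sums of 78.9, 79.9 and 9.93 FPKM, whereas the 3 TGF-beta genes had 31.1, 33.2 and 12.5 FPKM. With median-of-ratios scaling the sums of the 10 ligands were 103.4, 104.8 and 28.0 FPKM, so the folds over the adult were smaller. With libraries scaled to equal mRNA sums they were 118.5, 107.7 and 24.4 FPKM, highest at E10.5. The ligands at or above 1 FPKM numbered 8 (E10.5), 9 (E13.5) and 6 (adult).

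**Figure D1:**
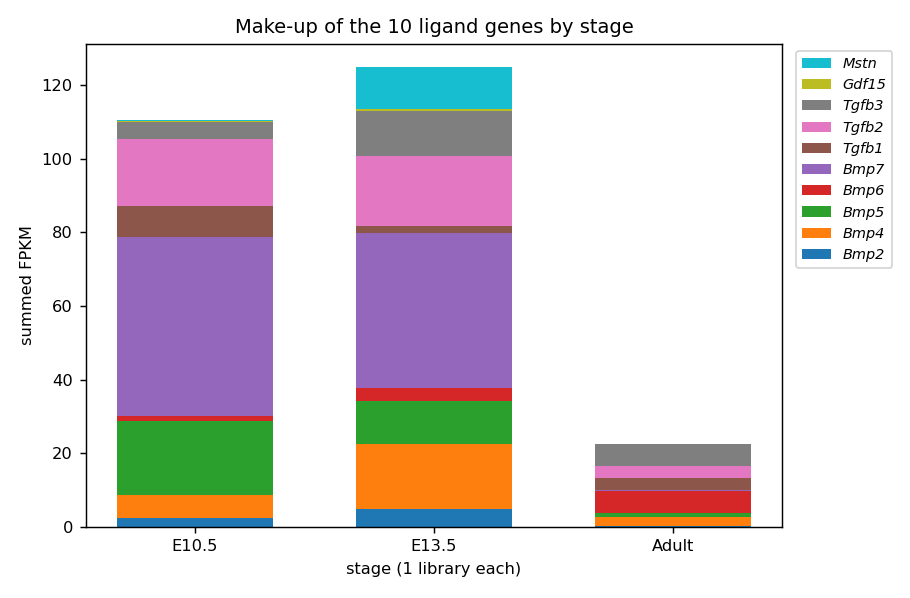
Stacked bars of FPKM (y axis) for the 10 ligand genes in the single library of each stage (x axis), 1 color per gene. Bmp7 is the largest part of both embryonic bars, and the adult bar, 22.5 FPKM high, is mostly Bmp6, Tgfb3, Tgfb1 and Tgfb2.

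The leading ligand changed between the embryo and the adult. Bmp7 was first in both embryonic libraries, with 44.1% of the ligand sum at E10.5 and 33.8% at E13.5, and held 1.43% in the adult. In the adult Bmp6 was first with 26.2% and Tgfb3 second with 25.8%, and these neighbours were not separated by their counting intervals. At E10.5 the order was Bmp7, Bmp5, Tgfb2, Tgfb1, Bmp4, Tgfb3, Bmp2, Bmp6, Gdf15 and Mstn, in which Bmp5 and Tgfb2, and Gdf15 and Mstn, had overlapping intervals. At E13.5 it was Bmp7, Tgfb2, Bmp4, Tgfb3, Bmp5, Mstn, Bmp2, Bmp6, Tgfb1 and Gdf15, in which Tgfb2 and Bmp4, Tgfb3 and Bmp5, and Bmp5 and Mstn were not separated. In adult ventricle it was Bmp6, Tgfb3, Tgfb1, Tgfb2, Bmp4, Bmp5, Bmp7, Bmp2, Mstn and Gdf15. Only 3 neighbouring pairs were separated there, Tgfb3 above Tgfb1, Bmp4 above Bmp5 and Bmp5 above Bmp7.

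**Figure D2:**
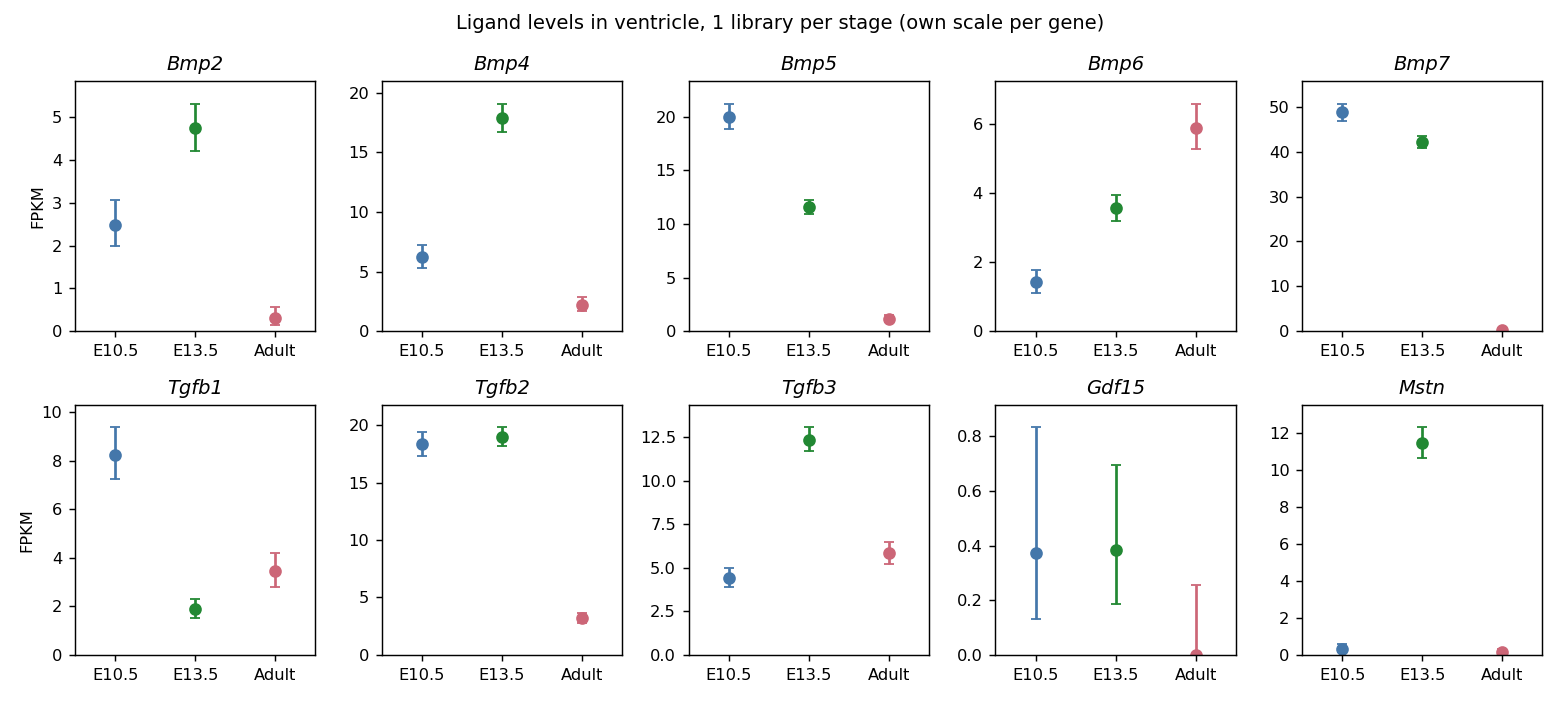
FPKM (y axis, own scale per gene, from 0) of each ligand gene in the single library of E10.5, E13.5 and the adult (x axis), with approximate 95% counting intervals as bars. Mstn stands at 11.5 FPKM at E13.5 and below 0.4 at both other stages, while Bmp7 stands above 40 FPKM in both embryonic libraries and at 0.323 in the adult.

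Bmp7 encodes a BMP of the Bmp5, Bmp6 and Bmp7 subgroup that is widely made in embryonic myocardium. Its locus lies on chromosome 2 of mm10, the build of all gene positions given here (172868016 to 172940572, minus strand, 7 exons). Bmp7 was at 48.8 FPKM (46.9 to 50.7) in the E10.5 library, 42.2 (40.9 to 43.5) in that of E13.5 and 0.323 (0.188 to 0.518) in adult ventricle. Both embryonic libraries were far above the adult library, where the value rests on about 16.9 fragments. The difference was -5.03 from E13.5 to the adult and -5.23 from E10.5 to the adult, 131-fold and 151-fold in FPKM. Of all mRNA loci tested, 0.485% were as far down from E10.5 to the adult.

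Bmp5 (chromosome 9, 75775253 to 75900305, plus strand, 7 exons) also had its highest level at E10.5. It was at 20.0 FPKM (18.8 to 21.2) in the E10.5 library, 11.5 (10.9 to 12.2) in that of E13.5 and 1.17 (0.892 to 1.50) in adult ventricle. The 3 libraries thus stepped down in order, and none of the intervals overlapped. The difference was -0.74 from E10.5 to E13.5, within the threshold, and -3.28 from E10.5 to the adult, a 17.1-fold difference in FPKM. With libraries scaled to equal mRNA sums the first of these was -1.03, past the threshold. One of 3 assembled Bmp5 transcripts starts at 75827700, inside the gene.

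Bmp6 (chromosome 13, 38344828 to 38500444, plus strand, 7 exons), best known as an endothelial signal of iron supply in the liver, went the other way. It was at 1.42 FPKM (1.12 to 1.77) in the E10.5 library, 3.57 (3.21 to 3.96) in that of E13.5 and 5.91 (5.28 to 6.60) in adult ventricle. It was the only ligand whose level was higher at each later stage, with no overlap of intervals. The difference from E10.5 to the adult was 1.52, a 4.17-fold difference in FPKM. The last 170 bases of the locus overlap exons of Txndc5 on the other strand, which was at 103.4, 130.3 and 25.2 FPKM, the reverse order between embryo and adult.

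Bmp4 and Bmp2 are the ligands closest to each other in the BMP group. Bmp4, which is needed for outflow tract septation, lies on chromosome 14 (46383520 to 46390599, minus strand, 4 exons). It was at 6.20 FPKM (5.31 to 7.20) in the E10.5 library, 17.9 (16.7 to 19.1) in that of E13.5 and 2.22 (1.69 to 2.86) in adult ventricle. Bmp2, which is made by the atrioventricular canal and acts in cushion formation, lies on chromosome 2 (133553199 to 133562885, plus strand, 3 exons). It was at 2.49 FPKM (1.99 to 3.07), 4.75 (4.22 to 5.32) and 0.309 (0.150 to 0.562), with the adult value resting on about 10.4 fragments. Both were highest at E13.5 and lowest in the adult, without overlap between any pair of stages. From E10.5 to E13.5 the difference was 1.39 for Bmp4 and 0.72 for Bmp2, and from E13.5 to the adult it was -2.55 and -2.13. The ratio of Bmp4 to Bmp2 in FPKM was 2.49 in the E10.5 library, 3.76 in that of E13.5 and 7.18 in adult ventricle.

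A piece of ventricle can hold tissue of the neighbouring atrioventricular canal and outflow tract. The 7 marker genes of these regions, Tbx2, Tbx3, Isl1, Wnt11, Msx2, Twist1 and Sox9, had a summed level of 27.4 FPKM in the E10.5 library, 50.4 in that of E13.5 and 6.13 in adult ventricle, the same order as Bmp2 and Bmp4. None of them was at 0 in any library. From E10.5 to E13.5 Isl1 and Twist1 were past the threshold, at 0.291 and 3.76 FPKM for Isl1 and 9.16 and 23.0 FPKM for Twist1. Tbx3 (2.68 and 2.37 FPKM) and Sox9 (3.56 and 2.82 FPKM) were instead higher at E10.5 than at E13.5, within the threshold. The part of such tissue in the levels of Bmp2 and Bmp4 was not tested.

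The 3 TGF-beta genes took 3 different courses. Tgfb2, which acts in the cushions and the outflow tract (chromosome 1, 186622816 to 186706140, minus strand, 7 exons), was at 18.4 FPKM (17.3 to 19.4) in the E10.5 library, 19.0 (18.2 to 19.8) in that of E13.5 and 3.21 (2.78 to 3.68) in adult ventricle. The embryonic libraries overlapped and both were above the adult library, with a difference of -2.25 from E13.5 to the adult. The difference between the embryonic stages was 0.05 and changed sign with either other scaling, to -0.10 and -0.25.

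Tgfb3, an isoform of mesenchyme and fibroblasts (chromosome 12, 86055981 to 86079067, minus strand, 7 exons), was at 4.44 FPKM (3.91 to 5.02), 12.4 (11.7 to 13.1) and 5.83 (5.21 to 6.50). Its E13.5 library stood above both others, with differences of 1.30 from E10.5 to E13.5 and -0.97 from E13.5 to the adult. Tgfb1, the isoform best known from immune cells, platelets and fibrosis (chromosome 7, 25687002 to 25704996, plus strand, 7 exons), was at 8.25 FPKM (7.24 to 9.36), 1.88 (1.53 to 2.29) and 3.45 (2.79 to 4.21). Its E13.5 library stood below both others, with a difference of -1.68 from E10.5 to E13.5. Of all mRNA loci tested, 0.788% were as far down between these libraries. Tgfb1 was the only one of the 10 ligands with its lowest level at E13.5.

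Within the TGF-beta group the shares moved accordingly. Tgfb2 held 59.1% of the summed FPKM of the 3 genes in the E10.5 library, 57.1% in that of E13.5 and 25.7% in adult ventricle. Tgfb3 held 14.3%, 37.2% and 46.7%, and Tgfb1 held 26.6%, 5.66% and 27.6%. The ratio of Tgfb2 to Tgfb3 was 4.14 in the E10.5 library, 1.54 in that of E13.5 and 0.551 in adult ventricle.

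Cell type markers moved with the TGF-beta genes in part. The summed level of the 6 endothelial and endocardial genes Pecam1, Cdh5, Tek, Kdr, Nfatc1 and Npr3 was 293.1 FPKM in the E10.5 library, 176.0 in that of E13.5 and 212.6 in adult ventricle, lowest at E13.5 like Tgfb1. Within that list only Cdh5 (50.2, 12.9 and 47.2 FPKM) and Kdr (48.1, 20.3 and 61.9 FPKM) were lowest at E13.5. Tek, Nfatc1 and Npr3 were lowest in the adult, with Npr3 at 86.1, 50.4 and 1.82 FPKM. Pecam1 was lowest at E10.5, at 46.5, 47.6 and 72.8 FPKM. The 5 platelet genes Pf4, Itga2b, Gp9, Gp1bb and Ppbp summed to 23.7, 39.3 and 45.6 FPKM, and the 6 macrophage genes, which include Csf1r and C1qa, to 5.96, 34.0 and 127.2 FPKM. Neither of these 2 sums was lowest at E13.5. The adult platelet sum was mostly Pf4 (37.6 FPKM), and 3 of the other platelet genes were lower there than at E13.5 past the threshold, with a list median of -1.22. The 6 fibroblast genes, with Col1a1, Col3a1 and Dcn among them, summed to 216.4, 369.6 and 496.5 FPKM. The adult sum rests on Dcn (350.7 FPKM) and Dpt, while Col1a1, Col3a1, Pdgfra and Tcf21 had their highest level at E13.5, as did Tgfb3, and the list median was -0.94 from E13.5 to the adult. None of the genes of these 4 lists was at 0 in any library, and their part in the levels of the TGF-beta genes was not tested.

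Mstn encodes myostatin, which limits skeletal muscle growth and is also made by heart muscle. Its locus on chromosome 1 (53061663 to 53068079, plus strand, 3 exons) holds 1 assembled transcript. Mstn was at 0.346 FPKM (0.183 to 0.593) in the E10.5 library, 11.5 (10.7 to 12.3) in that of E13.5 and 0.135 (0.0429 to 0.320) in adult ventricle. Only the E13.5 library was high, with about 769 estimated fragments against 12.9 and 4.84 at the other stages, whose intervals overlapped. The difference was 3.21 from E10.5 to E13.5 and -3.46 from E13.5 to the adult, 33.2-fold and 84.7-fold in FPKM. Of all mRNA loci tested, 0.183% were as far up between the embryonic libraries.

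Skeletal muscle genes were looked at beside Mstn. The 6 fast skeletal muscle genes Myh1, Myh4, Actn3, Tnnt3, Tnni2 and Myog summed to 24.0 FPKM in the E10.5 library, 56.2 in that of E13.5 and 2.18 in adult ventricle. Nearly all of the E13.5 sum was Tnni2, at 17.5, 51.0 and 1.52 FPKM, while Myh1 and Myh4 were below 0.1 FPKM in each library and Myog, a defining gene of differentiating skeletal muscle, was at 0.038, 0.454 and 0.050 FPKM. Tnni2 and Myog were highest at E13.5, as was Mstn, with Myog below 1 FPKM in each library. Actn3 was at 2.16, 1.30 and 0.0398 FPKM and Tnnt3 at 4.21, 3.47 and 0.563 FPKM, both highest at E10.5, unlike Mstn. The part of skeletal muscle in the Mstn level was not tested. The 6 cardiomyocyte genes, among them Tnnt2 and Actc1, summed to 15389, 22721 and 31091 FPKM, each gene being present in every library of this heart tissue. From E13.5 to the adult Mb (227.8 and 8914 FPKM) and Tnnt2 (1522 and 3148 FPKM) were higher past the threshold. The rest of that list were within it, with Actc1 lower at 4646 and 3353 FPKM, and the list median was 0.0008.

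Gdf15 encodes a stress cytokine that acts through the receptor Gfral of the hindbrain. It lies on chromosome 8 (70629394 to 70631635, minus strand, 2 exons) and was the lowest of the ligands in the E13.5 library, while in the other libraries its interval overlapped that of Mstn. It was at 0.373 FPKM (0.131 to 0.833) at E10.5 and 0.383 (0.186 to 0.696) at E13.5, on about 5.62 and 10.4 fragments, and is listed at 0 in the adult, where a count of 0 allows up to 0.208 FPKM (3 fragments) and the upper bound of the exact interval is 0.255 FPKM. The intervals of all stages overlapped, so a difference was not detectable at this depth. Gdf15 was the only ligand below 1 FPKM in every library and is the one member that does not pass that filter.

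The calls were then counted for the 10 ligands and set against all mRNA loci. From E10.5 to E13.5, 3 ligands were higher (Mstn, Bmp4 and Tgfb3) and 1 was lower (Tgfb1), where 5.89% of mRNA loci were higher and 4.85% lower. Between E13.5 and the adult, 6 ligands were lower (Bmp7, Mstn, Bmp4, Bmp5, Tgfb2 and Bmp2) and 0 higher, where 32.1% of mRNA loci were lower and 13.0% higher. With median-of-ratios scaling Bmp6 and Tgfb1 passed the threshold upward in this comparison, at 1.07 and 1.04.

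From E10.5 to the adult, 6 ligands were lower (Bmp7, Bmp5, Tgfb2, Bmp2, Bmp4 and Tgfb1) and 1 was higher (Bmp6), where 27.3% of mRNA loci were lower and 14.8% higher. With median-of-ratios scaling 4 were lower, since Bmp4 and Tgfb1 came to -0.85 and -0.72, and 18.4% of mRNA loci were lower. The median difference of the ligands was 0.38, -2.19 and -1.11 in the 3 comparisons, in the order given, against 0.17, -0.50 and -0.40 for mRNA loci. Each of the 3 libraries, the adult one included, enters 2 of these comparisons, which are therefore not independent of each other. Mstn and Bmp4, 2 of the 10, were higher at E13.5 than at both other stages by more than the threshold, a course shared by 3.09% of mRNA loci.

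The same counts were made with other rules, each with its own share of mRNA loci. With a threshold of 2, Mstn alone was higher at E13.5 than in the E10.5 library (0.851% of mRNA loci) and 0 ligands were lower (0.247%). All 6 ligands lower in the adult against E13.5 were also past -2 (9.88% of mRNA loci), with 0 higher (4.41%). Against E10.5, Bmp7, Bmp5 and Tgfb2 were past -2 (8.10%) and 0 ligands were past 2 (5.59%). A pseudocount of 0.1 in place of 1 gave 4 higher (10.2%) and 1 lower (7.54%) between the embryonic stages, Bmp6 being the added gene. With it the adult had 8 lower and 0 higher than E13.5 (36.9% and 15.6%), and 7 lower and 1 higher than E10.5 (32.7% and 17.5%).

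Scaling moved both the ligand counts and the shares of mRNA loci. Between the embryonic stages, 3 ligands were higher and 1 lower under the median-of-ratios factors (4.18% and 6.29%), and 3 higher and 2 lower with equal sums (3.36% and 8.64%), Bmp5 being the added gene. Against E13.5 the adult had 6 ligands lower with either scaling, and 2 higher under the median-of-ratios factors and 0 with equal sums, where the median-of-ratios factors put 18.9% of mRNA loci lower and 20.8% higher, and 23.6% were lower and 17.2% higher with equal sums. Against E10.5 the shares were 18.4% (lower) against 20.0% (higher) under the median-of-ratios factors, and 27.3% lower and 15.2% higher with equal sums. The ligands lower in that comparison numbered 4 under the median-of-ratios factors and 6 with equal sums, and 1 was higher with either.

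**Figure D3:**
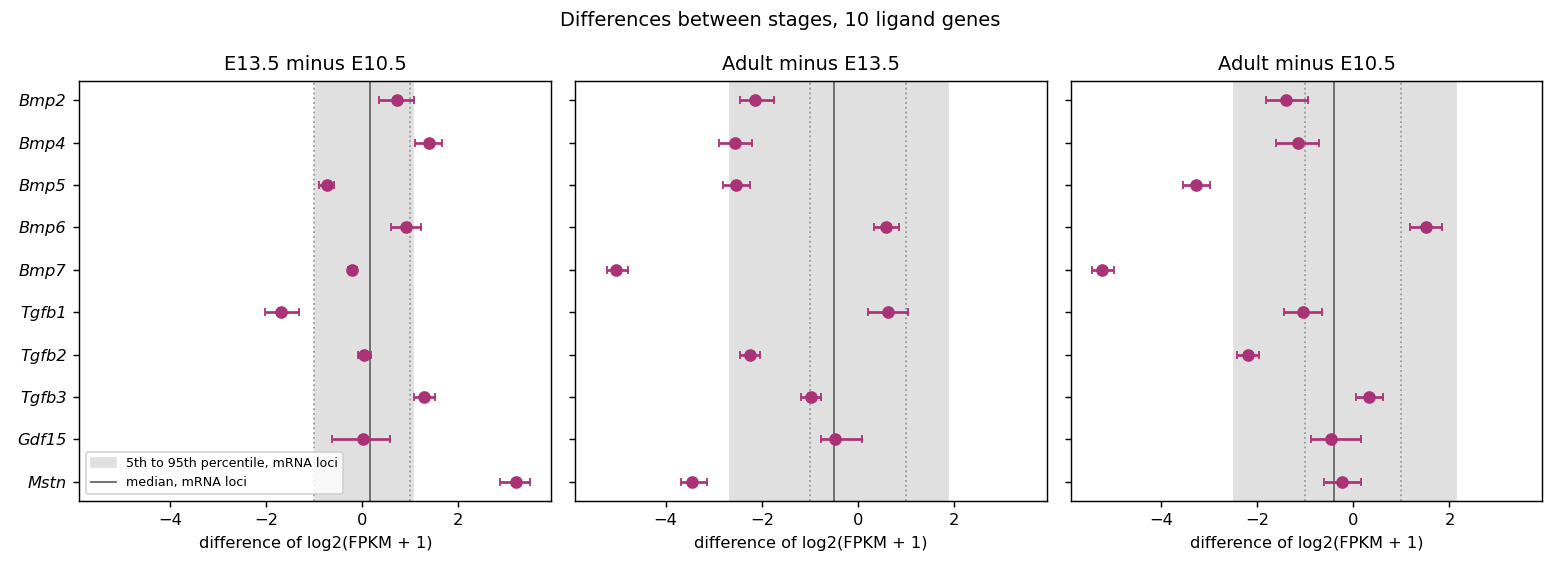
Difference of log2(FPKM + 1) (x axis) for each ligand gene in 3 comparisons of single libraries, with bars from the bounds of both counting intervals. The grey band spans the 5th to the 95th percentile of 12569 mRNA loci, the grey line is their median and dotted lines mark the threshold of 1. Mstn, Bmp4 and Tgfb3 lie to the right and Tgfb1 to the left of the band at E13.5, and Bmp7 and Mstn lie to the left of it from E13.5 to the adult.

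The counts of the pathway lists that follow include genes below 1 FPKM, which the share of mRNA loci leaves out, and 75 of the 103 listed genes reached that level. Of 23 other ligand genes of the family, 6 reached 1 FPKM in at least 1 library. Bmp10, a ligand of trabecular myocardium that is needed for growth of the embryonic ventricle, was at 57.2 FPKM in the E10.5 library, 26.2 in that of E13.5 and 0.0610 in adult ventricle. At E10.5 it was thus above each of the 10 ligands described here, and its difference to the adult of -5.78 was larger in size than that of Bmp7. Gdf11, the closest relative of Mstn, was at 7.59, 6.16 and 1.16 FPKM and did not share the E13.5 level of Mstn. From E10.5 to the adult 3 of the 23 were lower and 0 higher, and from E13.5 to the adult 6 were lower and 0 higher, where 27.3% and 32.1% of mRNA loci were lower. The 6 lower than at E13.5 are all those of the list at 1 FPKM or above in a library.

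Among the 7 type I receptor genes, 1 was higher and 3 were lower in adult ventricle than in E10.5 ventricle, where 14.8% of mRNA loci were higher and 27.3% lower. Bmpr1a, the main BMP type I receptor of the heart, had the highest level of the list and varied little, at 62.6, 59.2 and 45.8 FPKM. Tgfbr1, the type I receptor for TGF-beta, was at 41.7, 44.2 and 12.6 FPKM, the course of Tgfb2. Acvr1 was at 26.6, 10.96 and 6.52 FPKM. Acvrl1, the endothelial receptor of the group, was higher in the adult, at 1.26, 2.49 and 5.96 FPKM.

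Of the 5 type II receptor genes, 1 was lower and 0 were higher in the adult against E10.5 (mRNA loci 27.3% and 14.8%). With median-of-ratios scaling 1 was higher, where 20.0% of mRNA loci were higher. Bmpr2, the highest of the list in the E10.5 and adult libraries, was at 24.5, 7.77 and 22.1 FPKM, below Tgfbr2 (12.2) and Acvr2a (9.36) at E13.5 and itself lowest there, with a difference of -1.54 from E10.5. Acvr2b, a receptor for myostatin and activins, was at 7.05, 2.35 and 1.54 FPKM and so was not high in the library in which Mstn was high.

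Of the 9 co-receptors and decoys, 2 were higher and 3 lower in adult ventricle than in E10.5 ventricle, all among the 7 that reached 1 FPKM. The shares of mRNA loci at that level were 14.8% higher and 27.3% lower. Hfe2 (hemojuvelin), a BMP co-receptor of muscle and liver, was at 9.17, 4.13 and 85.3 FPKM, a difference of 3.08 from E10.5 to the adult. Bambi, a decoy receptor, was at 18.9, 32.5 and 3.96 FPKM, with the same order of stages as Bmp2 and Bmp4. The TGF-beta co-receptors Tgfbr3 and Eng were at 44.7, 8.70 and 15.2 and at 41.5, 16.6 and 18.0 FPKM, both lowest at E13.5 as was Tgfb1.

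Among 16 extracellular antagonists, 3 were higher and 0 lower at E13.5 than at E10.5, and 5 were lower and 0 higher in the adult than at E13.5. Among mRNA loci the first comparison had 5.89% higher and 4.85% lower, and the second 13.0% higher and 32.1% lower. In the second, median-of-ratios scaling left 3 antagonists lower and 1 higher (mRNA loci 18.9% and 20.8%). Fstl1, a follistatin-like protein made by epicardium and mesenchyme, was the highest antagonist in both embryonic libraries, at 171.8, 275.1 and 27.8 FPKM, and was below Twsg1 (34.5 FPKM) in adult ventricle. Dand5, an antagonist of Nodal, was at 2.91, 5.75 and 9.69 FPKM. It was the 1 antagonist that was higher in adult ventricle than in E10.5 ventricle, against 4 that were lower (mRNA loci 14.8% and 27.3%). The myostatin antagonists Fst and Fstl3, named after their values were seen, were highest at E13.5 as was Mstn, at 0.523, 2.64 and 0.499 FPKM for Fst and 1.31, 8.66 and 1.93 FPKM for Fstl3.

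The 16 genes of latency and processing hold, cut and release the precursors. In the adult against E10.5, 4 were higher and 4 lower (mRNA loci 14.8% and 27.3%). With median-of-ratios scaling 6 were higher and 2 lower (mRNA loci 20.0% and 18.4%). Itgb6, a subunit of an integrin that releases latent TGF-beta, was at 0.341 and 0.0487 FPKM in the embryo and 15.9 in the adult. Nrros, a carrier of latent TGF-beta in macrophages, was at 1.64, 2.68 and 8.41 FPKM, and the macrophage list was higher at each later stage too. Pcsk5, a convertase that cuts precursors, was at 18.5, 10.8 and 1.71 FPKM. The integrin subunits Itgb8 and Itgav were at 8.13, 4.86 and 1.81 and at 33.7, 14.8 and 13.0 FPKM.

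Of 13 Smads and Smad regulators, 4 were lower and 0 higher in adult ventricle than in E10.5 ventricle, and 0 were past the threshold in either direction between the embryonic stages. The count of 4 is near the share of mRNA loci (27.3%) and was 1 with median-of-ratios scaling (18.4% of mRNA loci). Smad4, the shared partner of all receptor Smads, had the highest level, at 39.1, 40.4 and 24.96 FPKM. Smad2 was at 20.9, 19.6 and 7.91 FPKM and Smad3 at 17.0, 14.7 and 7.93 FPKM. Of the inhibitory Smads, Smad6 was at 21.4, 38.8 and 0.737 FPKM, a difference of -3.69 from E10.5 to the adult. Smad7 was at 9.24, 12.2 and 3.71 FPKM, and its difference of -1.12 lay between those of Smad2 (-1.30) and Smad3 (-1.01).

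The 11 genes known as BMP targets were lower in the adult in most cases. From E13.5 to the adult 10 of 11 were lower, all but Tbx2, where 32.1% of mRNA loci were lower. The count was also 10 with median-of-ratios and with equal-sum scaling (18.9% and 23.6% of mRNA loci). Id2, one of the inhibitors of DNA binding that BMP signals induce, was at 101.3, 157.8 and 5.94 FPKM. Id3 was at 57.9, 139.5 and 10.1 FPKM, a difference of 1.25 between the embryonic libraries and -3.66 from E13.5 to the adult. The list median was 0.75 from E10.5 to E13.5 and -1.99 from E13.5 to the adult. This list shares Smad6, Smad7 and Bambi with the lists above and Tbx2 and Msx2 with the markers of the atrioventricular canal and outflow tract.

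The 9 genes known as TGF-beta targets did not move in 1 direction. From E10.5 to the adult 2 were higher and 2 lower (mRNA loci 14.8% and 27.3%), with a median of 0.06. With median-of-ratios scaling 0 were lower, where 18.4% of mRNA loci were lower. Smad7, Skil, Ltbp2 and Col1a1 of this list are also on others. Ctgf was at 27.9, 47.2 and 10.7 FPKM. Postn, a matrix protein of cushion mesenchyme and activated fibroblasts, was at 25.8, 188.4 and 18.6 FPKM and so was highest at E13.5, as were Mstn and Tgfb3. Over all 103 genes of the 9 lists, the adult had 9 higher and 28 lower than the E10.5 library. All of these were among the 75 genes that reached 1 FPKM, the set to be read against the shares of mRNA loci (14.8% higher and 27.3% lower).

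**Figure D4:**
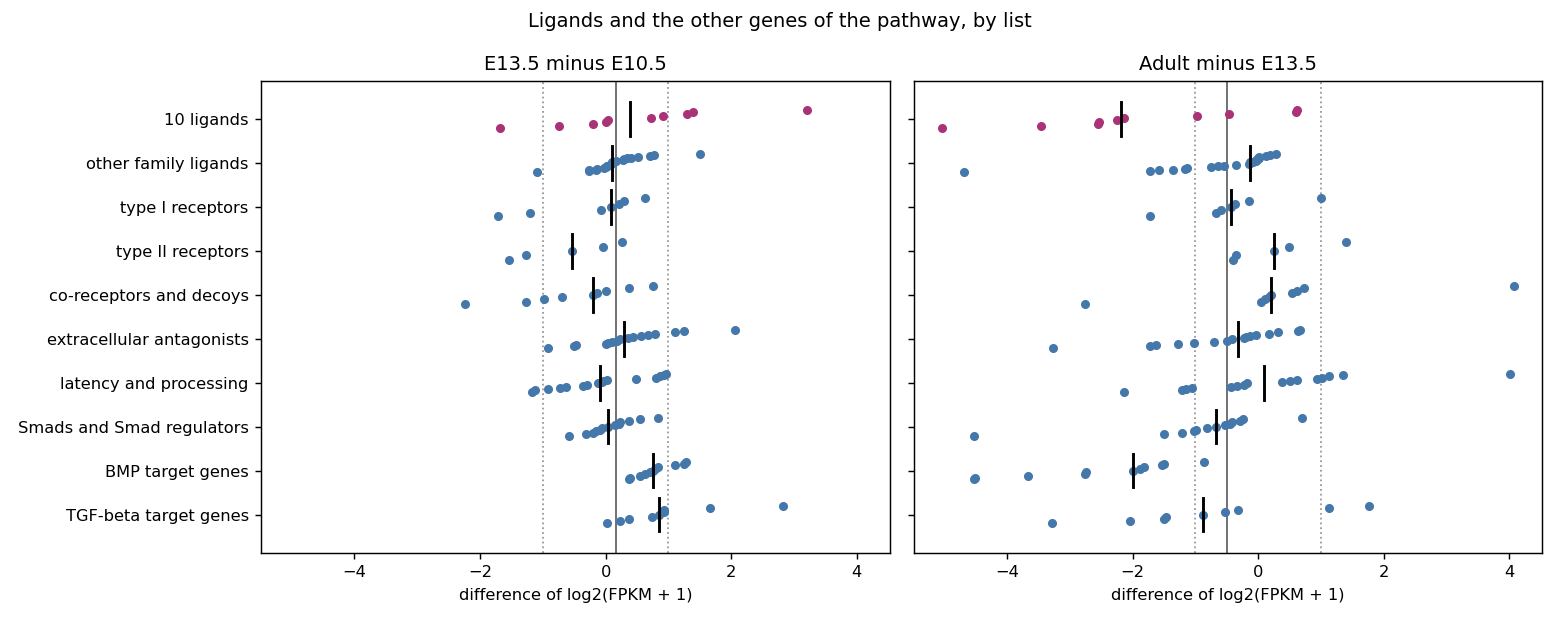
Difference of log2(FPKM + 1) (x axis) for the 10 ligands and for each gene of 9 pathway lists (y axis), from E10.5 to E13.5 and from E13.5 to the adult. Each point is a gene, black bars are list medians, the grey line is the median of mRNA loci and dotted lines mark the threshold of 1. The ligands and the BMP targets have the lowest medians in the right panel, at -2.19 and -1.99.

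The study screened for long non-coding transcripts of the developing heart, and the surroundings of the ligand genes were examined for them. An assembled start on the other strand within 3000 bp of a start was found for 0 of the 10 ligands, where 31.2% of mRNA loci have one. The count was also 0 within 1000 bp, where the share of mRNA loci is 26.4%. Such starts were counted for coding and non-coding transcripts alike. The nearest was that of 1700019E19Rik, a locus with up to 9 exons over 79899 bp, which starts 3494 bp from Tgfb3. It was at 29.7, 61.6 and 14.4 FPKM, highest at E13.5 as was Tgfb3, and whether it is coding was not examined here. An unspliced transcript of 470 bp on the same strand ends 493 bp before Bmp2 and had 1.26 and 2.74 FPKM in the embryonic libraries, while the adult library lists it at 0, with the same order of stages as Bmp2.

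At the 3' end of Tgfb2 lies a transcript of the other strand that carries the Tgfb2 symbol in the annotation (chromosome 1, 186615550 to 186624889). It is unspliced, spans 9340 bp and overlaps 2074 bases of Tgfb2 exons. It was at 0.448, 0.290 and 1.49 FPKM, highest in the adult, where Tgfb2 itself was lowest. It was kept apart from the gene, so that 11 loci carry the name of 1 of the 10 ligands. The libraries were stranded, and 22983 of 23040 unspliced transcripts without a reference match carry a strand, but the counting option was not given in the sources used here.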

How the data were processed

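RNA-seq libraries of ventricle, 1 per stage, were prepared by the authors with a stranded total RNA kit, and reads were mapped to mm10 with TopHat2 and assembled with Cufflinks. Versions and options are not given in the sources used here. The authors deposited FPKM values per merged locus and the exon coordinates of the merged transcripts. The FPKM columns summed to 601115, 808971 and 443471. All introns of the RefSeq transcripts of the 10 genes were found in GRCm38.p6 at the deposited positions.

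Genes were matched by symbol, or by a RefSeq synonym, to the locus with a fully matching transcript. Differences of log2(FPKM + 1) were computed with no test and called past 1. Background loci had a RefSeq mRNA match and 1 FPKM or more in at least 1 library. Members, lists and motifs were chosen with earlier results of these data known. Named genes were those of each list with 5 FPKM or more and the 4 largest called differences from E10.5 to the adult, plus the highest gene. Alternatives changed the scaling, the pseudocount (0.1), the threshold (2) and the filter. The scaling and calls were tested on simulated data. Proteins were not analysed here, and 1 gene that the naming rule selects is not reported here. Python 3.11.15, numpy 2.4.6, pandas 2.3.3 and scipy 1.17.1 were used.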

Additional observations from a re-analysis of the deposited data

How the results depend on the processing

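The sums of the 10 ligands ranged from 103.4 to 118.5 FPKM at E10.5, from 104.8 to 125.0 at E13.5 and from 22.5 to 28.0 in the adult over the deposited and the 2 other scalings. No call of a ligand changed sign. With a threshold of 2, ligands higher at E13.5 than at E10.5 numbered 1 and lower 0, and from E10.5 to the adult 0 were higher and 3 lower, while the 6 lower from E13.5 to the adult stayed at 6. Ligands lower at E13.5 than at E10.5 numbered 2 with equal sums, and ligands higher in the adult than at E13.5 numbered 2 with median-of-ratios scaling. With a pseudocount of 0.1, Gdf15, listed at 0 in the adult, came to -2.27 and -2.24 against E13.5 and E10.5. The called ligands all had counting intervals that did not overlap, an alternative chosen after seeing the data.

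The counts of all pathway genes are given with the share of mRNA loci under the same rule in parentheses. A pseudocount of 0.1 gave 19 higher and 15 lower from E10.5 to E13.5 (10.2% and 7.54%). It gave 14 higher from E13.5 to the adult (15.6%) and 16 higher from E10.5 to the adult (17.5%). In these comparisons a threshold of 2 gave 2 higher and 1 lower (0.851% and 0.247%), and 2 higher and 10 lower (4.41% and 9.88%). In the last it gave 3 higher and 7 lower (5.59% and 8.10%). Median-of-ratios scaling gave 15 higher from E13.5 to the adult (20.8%). As reported, these counts stood at 9 and 9 (5.89% and 4.85%), 7 and 31 (13.0% and 32.1%), and 9 and 28 (14.8% and 27.3%). Under median-of-ratios scaling the median of mRNA loci was 0.04, -0.03 and -0.06 in the 3 comparisons. No paired analysis was possible because the design holds 1 library at a stage. The cause of these shifts was not tested.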

Other observations

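For each ligand, the pathway gene with the most similar course was sought among 103 genes, by the mean absolute difference of the 3 values of log2(FPKM + 1) after centring on the gene's mean. With 3 libraries many genes are close to each other, so this is a description. Bmp7 was closest to Bmp10 (0.32) and Bmp5 to Pcsk5 (0.18), both pairs being lowest in the adult. Mstn was closest to Postn (0.13) and Tgfb3 to Inhba (0.13), which was at 0.396, 2.97 and 0.553 FPKM. Bmp2 was closest to Ctgf (0.04), Bmp4 to Id4 (0.11) and Bmp6 to Dand5 (0.04). Tgfb1 was closest to Eng (0.21), Tgfb2 to Gdf11 (0.18) and Gdf15 to Amhr2 (0.04). Gdf15 and Amhr2 were both below 1 FPKM in every library, where log2(FPKM + 1) varies little, so a small value is not a close match of courses.

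Downstream of Tgfb2, on the other strand, lies a locus of 6 assembled transcripts with up to 4 exons (chromosome 1, 186587129 to 186615340). It was at 2.50 FPKM in the E10.5 library, 4.20 in that of E13.5 and 9.04 in adult ventricle. Tgfb2 was lowest in the adult, so these neighbours had opposite orders between embryo and adult. The 5 epicardial genes Wt1, Tbx18, Upk3b, Msln and Aldh1a2 summed to 109.7, 108.3 and 16.5 FPKM. The 5 atrial genes Myl7, Myl4, Nppa, Sln and Stard10 summed to 6393, 6780 and 48.3 FPKM. Nearly all of the embryonic atrial sums was Myl7 (2453 and 1935 FPKM), Myl4 (2164 and 2440 FPKM) and Nppa (1744 and 2385 FPKM). Sln was at 21.3 and 7.11 FPKM in the embryonic libraries, lower at E13.5 past the threshold. Stard10 was within the threshold in each comparison. The 5 erythroid genes, with Hbb-y among them, summed to 6758, 16348 and 24.5 FPKM. The part of these cells in the ligand levels was not tested.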
